A study of Mus musculus with 9 samples.

Results

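A set of 9 genes of the red cell lineage was followed in LSK cells of mice with and without Abi1: the transcription factors Klf1 and Gata1, the carbonic anhydrases Car1 and Car2, and the red cell membrane proteins Rhag, Aqp1, Ermap, Kel and Icam4. They were listed by symbol for their known role, but with earlier results of these data known. Each was read from the single probeset that carries its symbol alone, which gave 9 members among 30142 named genes. LSK cells lack the surface markers of mature blood lineages, carry c-Kit and Sca-1, and hold the blood stem cells and the first progenitors. They were sorted from the marrow of 4 knockout (KO) mice, Abi1(-/-);Tg (Mx1-cre(+)), and 5 wild-type (WT) mice, Abi1(fl/fl);Tg (Mx1-cre(-)). Mice of both groups were given 3 injections of poly(I:C) at 8 to 9 weeks of age and were used at 12 to 14 weeks. Mx1 is an interferon-inducible promoter that is not restricted to blood cells, so Cre also acts outside the marrow, and deletion was tested by PCR on marrow. The transgene was carried by KO mice alone, so Cre activity and loss of Abi1 cannot be told apart here. Each array held amplified RNA of 1 mouse, and the labels give no strain, sex, litter or sort day.

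Red cells arise from stem cells through progenitors that also give rise to megakaryocytes. GATA1 and KLF1 switch on the genes of the red cell, GATA1 at GATA motifs and KLF1 at CACCC motifs, and progenitors are known to carry low amounts of lineage transcripts before they commit, which is called priming. Carbonic anhydrases interconvert carbon dioxide and bicarbonate, and the membrane proteins of the list carry blood group antigens or move gas, ammonia and water.

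The promoters of the members Klf1, Ermap, Kel and Icam4, which held the motif GATAA, and of Aqp1, which did not, are shown. Those of Rhag, with GATAA, and of Gata1, without it, are not printed. GATA1 and KLF1 are known to act on red cell genes, but their part in the signals measured here was not tested. RefSeq, on build GRCm38.p6, gave the 250 bases before the transcription start for 7 of the 9 members, with no entry for Car1 and Car2. Each line reads 5′ to 3′ on the gene's strand, and capitals mark GATAA or, for a match on the other strand, TTATC.

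Klf1: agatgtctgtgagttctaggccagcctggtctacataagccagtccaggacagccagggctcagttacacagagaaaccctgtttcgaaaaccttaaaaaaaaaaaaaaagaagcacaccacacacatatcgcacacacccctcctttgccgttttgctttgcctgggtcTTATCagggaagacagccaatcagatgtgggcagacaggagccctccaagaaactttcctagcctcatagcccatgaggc

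Ermap: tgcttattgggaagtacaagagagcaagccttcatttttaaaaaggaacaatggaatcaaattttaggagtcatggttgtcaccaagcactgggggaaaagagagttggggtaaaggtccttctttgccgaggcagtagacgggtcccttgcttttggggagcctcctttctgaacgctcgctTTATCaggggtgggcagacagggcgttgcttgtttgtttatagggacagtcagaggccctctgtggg

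Kel: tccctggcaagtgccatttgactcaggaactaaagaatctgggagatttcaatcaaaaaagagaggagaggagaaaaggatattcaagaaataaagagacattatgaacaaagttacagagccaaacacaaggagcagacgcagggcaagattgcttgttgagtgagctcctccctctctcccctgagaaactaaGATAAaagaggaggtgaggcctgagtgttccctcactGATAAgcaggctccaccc

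Icam4: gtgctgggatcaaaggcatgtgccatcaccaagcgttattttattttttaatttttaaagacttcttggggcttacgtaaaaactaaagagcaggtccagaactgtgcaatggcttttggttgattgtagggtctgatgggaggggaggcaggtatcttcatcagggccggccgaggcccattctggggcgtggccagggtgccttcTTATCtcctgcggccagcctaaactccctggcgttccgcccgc

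Aqp1: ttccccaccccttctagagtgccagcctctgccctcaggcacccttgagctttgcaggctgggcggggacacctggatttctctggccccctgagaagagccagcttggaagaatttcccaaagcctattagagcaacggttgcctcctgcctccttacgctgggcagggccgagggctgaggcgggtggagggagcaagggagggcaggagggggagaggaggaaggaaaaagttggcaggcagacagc

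The windows are chr8:84901732-84901981 (+ strand) for Klf1, chr4:119189996-119190245 (- strand) for Ermap, chr6:41704326-41704575 (- strand) for Kel, chr9:21029182-21029431 (+ strand) for Icam4 and chr6:55336049-55336298 (+ strand) for Aqp1. GATAA was found on either strand in 5 of the 7 windows, those of Klf1, Ermap, Kel, Icam4 and Rhag, against 22.6% of 32851 RefSeq windows of this length. Kel held it 2 times, starting 18 and 55 bases before the start site, Rhag at 31, Icam4 at 43, Ermap at 67 and Klf1 at 80. The windows of Aqp1 and Gata1 held no match. CACCC, or GGGTG on the other strand, was in all 7 windows against 52.0% of all, and both motifs were in 5 against 10.1%. Matches of the 2 motifs can share 1 base at their ends. These are descriptions of sequence, with no measure of binding here.

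Signals are given as deposited and read as log2 units, a base that the value range fits but that the sources used here do not state. A gene is called above background in an array when it exceeds the percentile 95 of 1717 receptor genes of smell (Olfr and Vmn names) there, a level of 5.29 to 5.64. By their mean over the arrays 16023 genes (53.2%) lay above it, all 9 members among them. The targeted gene Abi1 read 5.59 to 6.11 in KO and 11.49 to 11.65 in WT, so each array matched its label. Kit, the gene of the c-Kit gate, read 13.82 in KO replicate 1 and 14.39 to 14.78 in the other 8 arrays, and the Sca-1 gene was not analysed here. The arrays least like the rest were KO replicate 1 and WT replicate 5, whose median correlation to the others was 0.973 and 0.979, against 0.987 to 0.992. In both, control probesets marked pos were also least separated from those marked neg (probability of a higher signal 0.775 and 0.756 against 0.803 to 0.827). The genotype differences and correlations of the members are therefore given with and without WT replicate 5 and, in part, without KO replicate 1 as well.

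Klf1, which activates globin, heme and membrane genes, read 7.76, 8.82, 9.60 and 9.57 in KO replicates 1 to 4 and 8.94, 10.04, 8.95, 7.60 and 5.63 in WT replicates 1 to 5. The lowest value, in WT replicate 5, was 0.34 above that array's background, and the other arrays were 2.12 to 4.74 above theirs. Gata1, the factor that red cell and megakaryocyte progenitors need to mature, read 6.55, 6.59, 6.84 and 6.78 in KO and 6.56, 6.67, 6.59, 6.34 and 5.89 in WT. It varied little, by 0.50 over the 8 arrays without WT replicate 5, and was 0.60 to 1.49 above background in each array. For both factors the genotypes overlapped and WT replicate 5 was lowest.

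Car1, the carbonic anhydrase that marks early red cell progenitors, was far above background in 8 arrays, by 9.76 to 11.69, and near it in 1. It read 15.40, 16.05, 16.86 and 16.59 in KO and 16.65, 16.99, 16.85 and 15.64 in WT replicates 1 to 4. WT replicate 5 read 6.38, which was 9.02 below the lowest other array, or 519-fold if the values are log2, and 1.09 above background. No other of the 16023 genes above background fell so far below the remaining arrays in WT replicate 5. In bulk RNA fewer cells of a type and less RNA per cell cannot be told apart. Car2, a carbonic anhydrase of red cells that other marrow cells also make, read 11.31, 11.92, 12.25 and 12.05 in KO and 12.38, 12.43, 12.14, 11.60 and 11.46 in WT. WT replicate 5 was not its lowest array, and its signal there was 6.17 above background.

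Rhag, the Rh-associated glycoprotein that moves ammonia and gas, read 8.02, 8.21, 10.12 and 9.27 in KO and 9.97, 9.37, 9.95, 7.60 and 5.27 in WT. In WT replicate 5 it lay 0.02 under the background level, the single member value in the data that did. Aqp1, the water channel of red cells and endothelium, read 8.21, 10.89, 12.22 and 11.77 in KO and 11.72, 12.39, 11.39, 10.32 and 5.83 in WT. It had the widest range of the members over the 8 arrays without WT replicate 5, at 4.18, from KO replicate 1 to WT replicate 2.

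Ermap, the membrane protein of the Scianna blood group, read 8.74, 9.45, 11.22 and 10.58 in KO and 11.04, 11.91, 11.56, 9.46 and 5.51 in WT. Its signal in WT replicate 5 was 3.23 below the lowest other array. Kel, the endopeptidase of the Kell blood group, read 7.54, 8.62, 9.82 and 9.58 in KO and 9.86, 10.17, 9.67, 8.19 and 5.79 in WT. Icam4, the adhesion molecule of the Landsteiner-Wiener blood group, read 9.64, 10.09, 10.44 and 10.11 in KO and 9.85, 10.56, 9.99, 9.54 and 7.41 in WT. Icam4 was still 2.12 above background in WT replicate 5, where Ermap was 0.22 and Kel 0.50 above it.

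**Figure D1:**
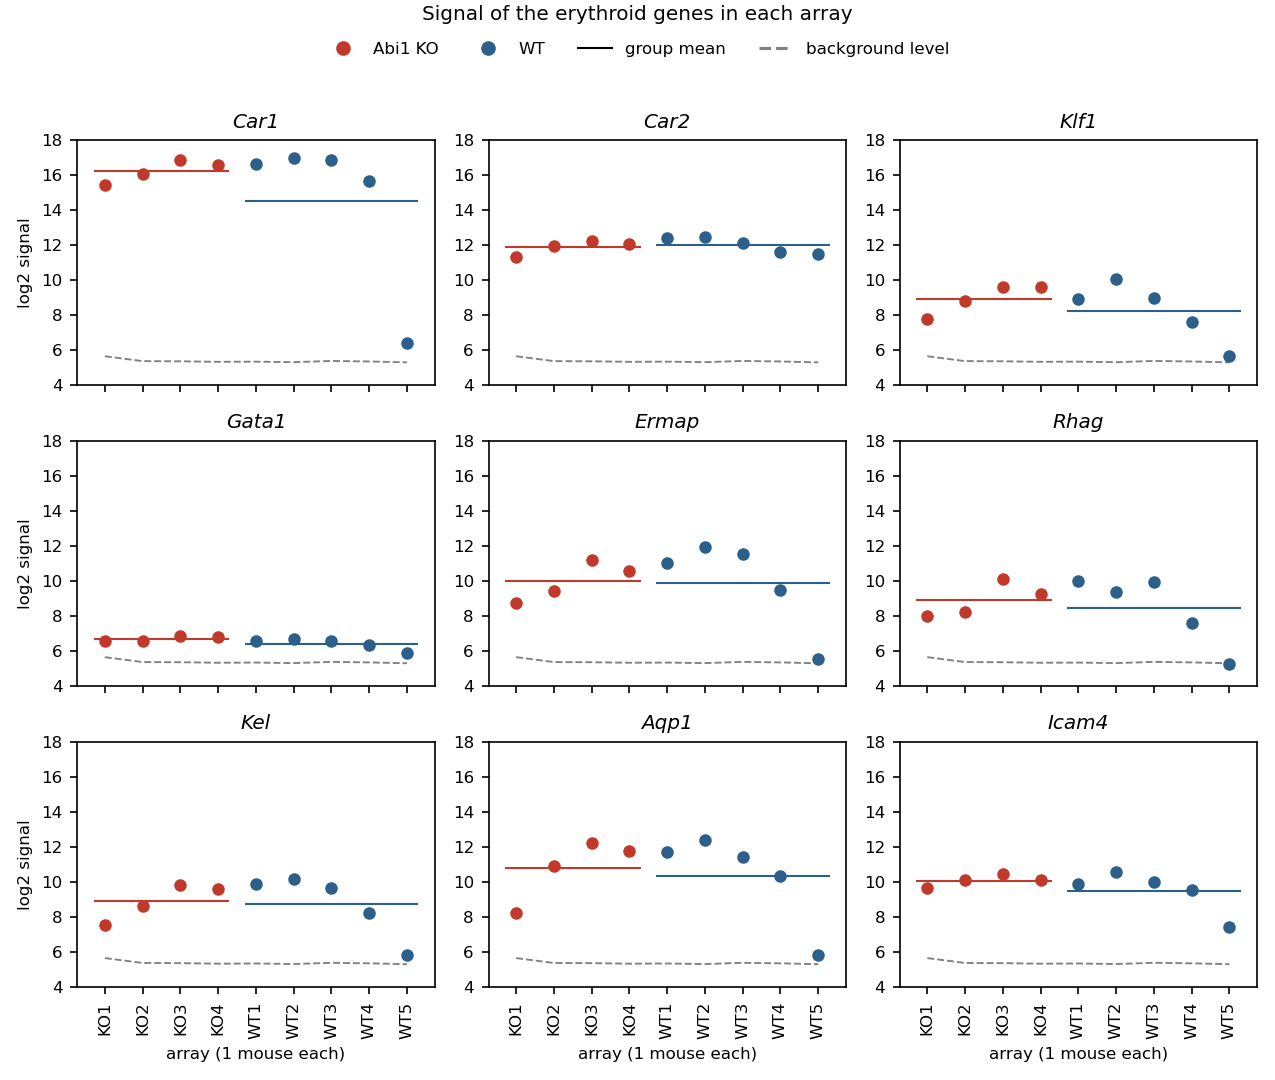
Deposited signal (log2) of each of the 9 genes in each array (1 mouse each), with KO in red, WT in blue, group means as lines and the background level of each array dashed. WT replicate 5 lies 1.75 or more below every other array for Car1, Klf1, Ermap, Rhag, Kel, Aqp1 and Icam4, whereas Car2 stays at 11.46 there.

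The low values in WT replicate 5 set 7 of the 9 members apart. That this array was low in Car1 was known when the analysis was planned, so the counts here are a description. Each of the 7 lay at least 1 below the lowest of the other 8 arrays there, as did 0.437% of the genes above background (70 of 16023). In order of distance they were Car1 (9.02), Ermap (3.23), Aqp1 (2.38), Rhag (2.33), Icam4 (2.13), Klf1 (1.97) and Kel (1.75). The exceptions were Gata1, 0.45 below, and Car2, for which KO replicate 1 was lower. None of the members lay at least 1 above all other arrays there, as 0.262% of genes did. WT replicate 5 was the lowest array for 8 of 9 members, against 24.1% of genes above background. Placing each other array in its stead gave 133 such genes for KO replicate 1 and 0 to 8 for the remaining 7 arrays. These counts could not include the 8 members that were lowest in WT replicate 5, since each array was compared with that array too. The part that the low separation of control probesets in this array had in these values was not tested.

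The remaining 8 arrays also differed in their red cell signal. Of the 9 members, 8 spanned at least 1 log2 unit among them, against 20.8% of genes above background. KO replicate 1 and WT replicate 4 were the 2 lowest of the 8 for 8 of 9 members, against 3.53% of genes. Their members lay at medians of -1.22 and -1.23 from the 8-array median, KO replicate 2 at -0.57, and WT replicate 2 at 0.52. WT replicate 2 was highest for 7 members and KO replicate 3 for the other 2, Rhag and Gata1. Each genotype thus held arrays of high and of low red cell signal, whose order by mean rank ran from WT replicate 5 (1.11) through KO replicate 1 (2.33) and WT replicate 4 (2.67) to KO replicate 3 (7.89) and WT replicate 2 (8.44).

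Between genotypes none of the members passed the test. With all 9 arrays, limma gave 0 of 9 members an adjusted p under 0.05, against 0.00332% of all genes tested (1 of 30142, Abi1), and 0 of 9 an unadjusted p under 0.05, against 5.01%. KO and WT values overlapped for all 9 members, where 0.856% of genes did not overlap. The smallest p was that of Gata1, for which WT averaged 6.41 ± 0.315 (SD, n = 5) and KO 6.69 ± 0.142 (SD, n = 4). The difference of 0.28 had a standard error of 0.159 (limma adjusted p = 0.786, exact two-sided permutation p = 0.151). For Klf1 the means were 8.94 ± 0.864 (SD, n = 4) and 8.23 ± 1.69 (SD, n = 5), a difference of 0.71 with an SE of 0.858 (limma adjusted p = 0.808, exact permutation p = 0.516).

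Car1 averaged 14.50 ± 4.57 (SD, n = 5) in WT, or 16.53 ± 0.611 (SD, n = 4) without replicate 5, and 16.23 ± 0.645 (SD, n = 4) among KO mice. The difference of 1.72 (limma 95% interval -3.16 to 6.61) became -0.31 (-1.25 to 0.63) without that array. The differences of the other members were -0.12 for Car2, 0.10 for Ermap, 0.15 for Kel, 0.44 for Aqp1, 0.47 for Rhag and 0.60 for Icam4. The KO mean was the higher in 8 of 9 members with all arrays, against 64.2% of all genes, and in 3 of 9 without WT replicate 5, against 61.7%. Those 3 were Klf1 (0.06), Gata1 (0.15) and Icam4 (0.08), and the differences of Car1, Ermap, Rhag, Kel and Aqp1 changed sign. The median member difference was 0.44 with all arrays (all genes, 0.034), -0.31 without WT replicate 5 and -0.02 without KO replicate 1 as well. With both arrays left out the differences were 0.45 for Klf1, 0.23 for Icam4, 0.20 for Gata1 and 0.17 for Aqp1, and -0.02 for Rhag, -0.03 for Car1, -0.06 for Car2, -0.13 for Kel and -0.58 for Ermap. The direction of Car1, Ermap, Rhag, Kel and Aqp1 between genotypes therefore rested on which of these arrays were kept. In these settings Klf1, Gata1 and Icam4 stayed higher and Car2 lower in KO, with limma 95% intervals that included 0.

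**Figure D2:**
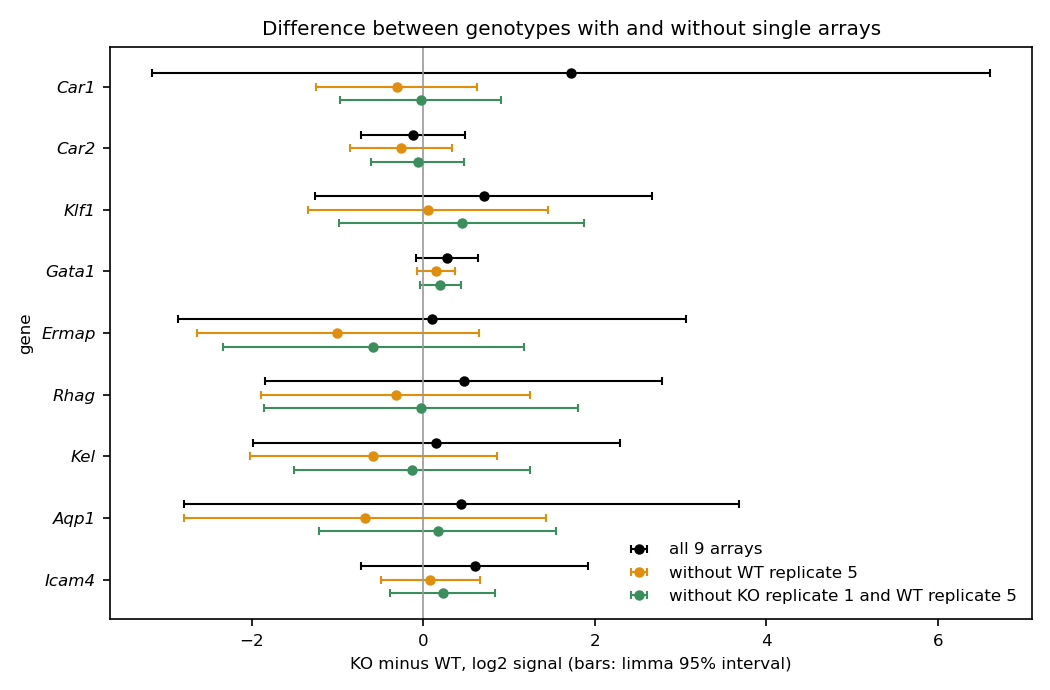
KO minus WT difference of each gene (log2 signal) with its limma 95% interval, for all 9 arrays (black), without WT replicate 5 (orange) and without KO replicate 1 and WT replicate 5 (green). Every interval includes 0, and the Car1 interval narrows from -3.16 to 6.61 with all arrays to -1.25 to 0.63 without WT replicate 5.

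The intervals say what size of difference the arrays could miss. Without WT replicate 5 the interval for Gata1 ran from -0.07 to 0.37, that for Icam4 from -0.49 to 0.66 and that for Car2 from -0.85 to 0.34. For Klf1 it ran from -1.34 to 1.45, which includes a change of 1 log2 unit either way. Those of Ermap (-2.64 to 0.65), Aqp1 (-2.79 to 1.43), Kel (-2.02 to 0.86) and Rhag (-1.89 to 1.25) were wider, with KO replicates 1 and 2 and WT replicate 4 low within their own groups. All 4 of these intervals include a KO signal that is lower by 1 log2 unit, and those of Aqp1 and Rhag also one that is higher by 1.

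The members rose and fell together from array to array. Over the 8 arrays without WT replicate 5, all 36 pairs had a Pearson r above 0, with a median of 0.85 (0.51 to 0.99). After adjustment over the 36 pairs, 28 had an exact permutation p under 0.05 for r and 24 for Spearman's rho, whose median was 0.81. The share of pairs among all genes that would pass the same test was not measured, so these counts alone do not set the members apart. With WT replicate 5 included, 34 pairs passed and the median r was 0.90 (0.59 to 0.98), values to which the single low array contributes. The pairs also moved together within genotypes: deviations from each genotype's own mean gave a median r of 0.91 (0.64 to 0.99) over the 8 arrays.

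The tightest pairs over the 8 arrays joined Car1 or Car2 with Kel, and Car1 with Ermap. Ermap and Kel followed at r = 0.96. Icam4, also named here for a blood group, had a lower r, 0.79 with Car1 and 0.75 with Car2. Car1 and Kel had r = 0.99 over 8 arrays (exact permutation p = 0.000174, adjusted p = 0.00208) and rho = 0.93 (exact p = 0.00223, adjusted p = 0.0122). Without the 2 arrays farthest from the Car1 median their r was 0.95. Car1 and Ermap had r = 0.97 (exact permutation p = 9.92e-05, adjusted p = 0.00179) and rho = 0.95 (exact p = 0.00114, adjusted p = 0.0122), and r = 0.98 without the 2 farthest arrays. Car2 and Kel had r = 0.98 and rho = 1.0, and both relations passed (adjusted exact permutation p = 0.000893 and 0.00179). Car1 and Car2 had r = 0.95 over 8 arrays (exact permutation p = 0.00057, adjusted p = 0.00268) but 0.59 over 9 (exact p = 0.0511). In WT replicate 5 Car2 lay at -0.63 from its 8-array median and Car1 at -10.24. Their rho was 0.93 over 8 arrays (exact permutation p = 0.00223) and also 0.93 over 9 (exact permutation p = 0.00075, adjusted p = 0.003). Over the 8 arrays r was 0.77 without the 2 farthest.

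Much of the shared movement lay between low and high arrays. Leaving out the 2 arrays farthest from the median of the first gene of each pair lowered the median r of the 36 pairs from 0.85 to 0.66, and 35 stayed above 0. Over the 7 arrays without KO replicate 1 and WT replicate 5, chosen after seeing the data, the median r was 0.85 and 24 pairs passed. The pairs of Klf1 ranged from r = 0.75 with Rhag to r = 0.93 with Icam4. Klf1 and Gata1, the regulators, had r = 0.82 (exact permutation p = 0.0127, adjusted p = 0.0229) and rho = 0.89 (exact p = 0.00575, adjusted p = 0.0174), and r = 0.67 without the 2 farthest arrays.

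In the deposited signals Gata1 followed the others within each genotype more closely than across them. Its r over 8 arrays was 0.65 with Car1 (exact permutation p = 0.0826, adjusted p = 0.0959; rho = 0.71, exact p = 0.0586) and 0.51 with Ermap (exact p = 0.207; rho = 0.54, exact p = 0.178). Taken as deviations from each genotype's mean, the same pairs had r = 0.97 and 0.99. After quantile normalization the r over 8 arrays, across genotypes, was higher, at 0.77 with Car1 and 0.67 with Ermap. Gata1 also lay near background. Its height over background was 0.91 in KO replicate 1 and 1.0 in WT replicate 4, the reverse order of their signals. KO replicate 3 and WT replicate 3 had like Car1 signals, 16.86 and 16.85, and Gata1 read 6.84 in the first and 6.59 in the other. The KO minus WT difference of Gata1 itself did not pass the test, and the difference between the 2 genotypes in the relation was not tested.

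**Figure D3:**
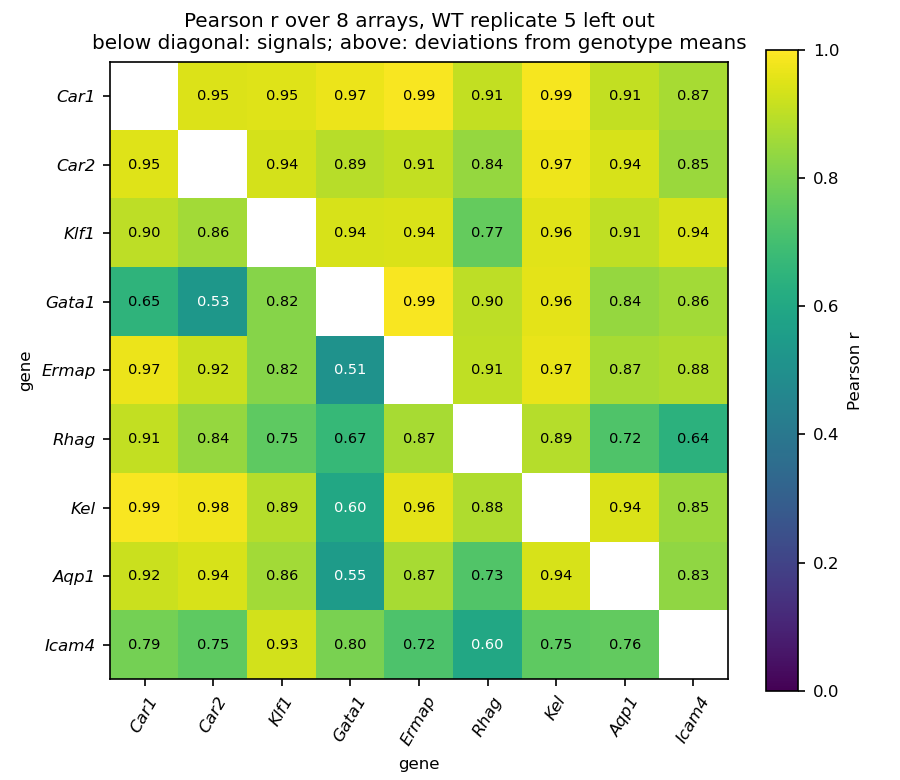
Pearson r of each pair of genes over the 8 arrays without WT replicate 5, from the signals (below the diagonal) and from deviations from genotype means (above). Signals give r from 0.51 to 0.99, with the lowest values in pairs of Gata1 (0.51 with Ermap, 0.53 with Car2 and 0.55 with Aqp1). Deviations from genotype means give 0.64 to 0.99.

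**Figure D4:**
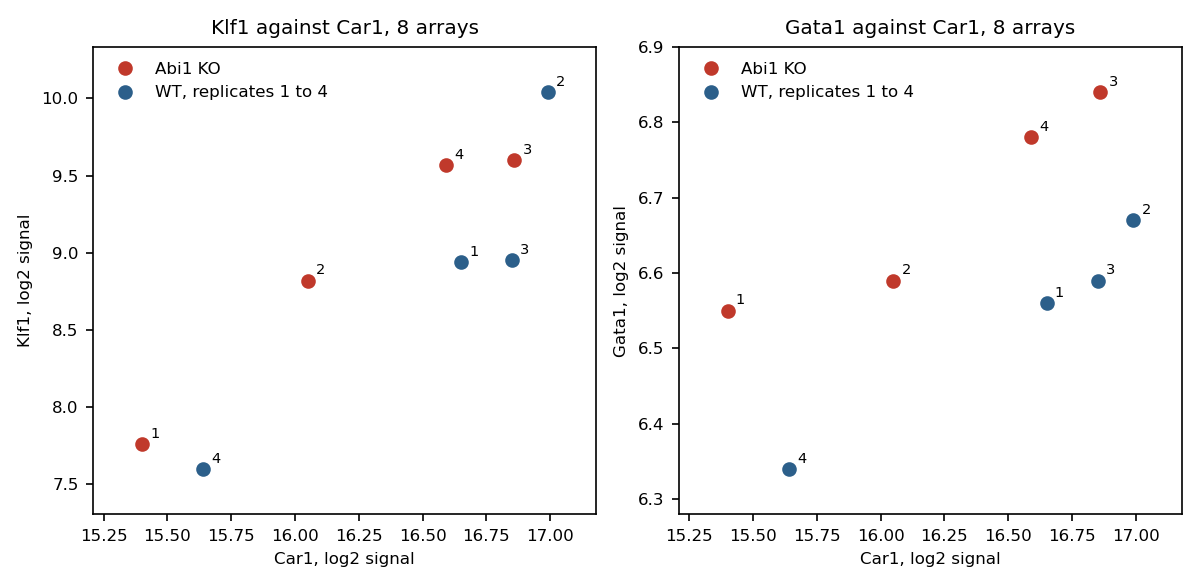
Signals (log2) of Klf1 (left) and Gata1 (right) against Car1 in 8 arrays, WT replicate 5 left out, with KO in red, WT in blue and replicate numbers beside the points. KO replicate 1 and WT replicate 4 sit at the low end of both axes for Klf1, and for Gata1 the KO points lie above the WT points of like Car1 signal.

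The members were more alike to each other than most genes are to them, given here as a description since all values come from the same arrays. The median r of Car1 with the other members over 8 arrays was 0.91, a value that 38 of 16001 genes (0.238%) exceeded, and its median r with those genes was -0.059. The same share was 0.231% for Kel, 0.375% for Klf1, 2.89% for Gata1 and 5.2% for Aqp1. Leaving aside model names (such as Gm numbers), small RNAs and receptor genes, of the 6 genes most like Car1 over 8 arrays 2 were members, Kel and Ermap, and 1 was Ank1, the ankyrin that ties the red cell skeleton to the membrane (r = 0.961). The other three were Cdr2 (0.972), Mst1r (0.964) and LTO1 (0.960). The model gene Gm5843, set aside here by its name, had a higher r with Car1 (0.992) than any of them.

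For Klf1 the gene most alike over 8 arrays was Samd14 (r = 0.983), followed by Daam1 and Ubxn2a (0.966 each), Tspo2, a translocator protein of erythroblasts (0.961), Hspa4l (0.959) and Mfsd2b, a sphingosine-1-phosphate exporter of red cells and platelets (0.955). Samd14 and Tspo2 were also first over all 9 arrays, at 0.993 and 0.981. For Gata1 they were Pdlim1 (0.980), the red cell spectrin gene Sptb (0.971), Hivep1 (0.968), Hpn (0.958), Ptdss2 and Ccdc93 (0.955 each). Over 9 arrays, with the same names set aside, the genes most like Car1 were Eif1a (0.991), Man1b1, Polm, Cap2 and Cplx2 (0.988 each) and Emc1 (0.987). Eif1a ranged only from 10.20 to 10.90 while Car1 ranged from 6.38 to 16.99, so r over 9 arrays turns on WT replicate 5.

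The genes next to Car1 on the chromosome, named after their values were seen, were read as well. In RefSeq order these are Car13, the pseudogene Gm5843, Car1, Gm16399, Gm41999, Car3 and Car2, and Gm41999 was not measured. Gm5843 read 5.80 in WT replicate 5 against 14.46 to 16.65 in the others, and its r with Car1 over 8 arrays was 0.992. Car13 read 7.25 against 7.85 to 8.35 (r = 0.523). Gm16399 read 10.16 against 10.58 to 11.99 (r = 0.153). Car3 was at background, at 5.03 against 5.05 to 5.50. Whether probes for Gm5843 also detect Car1 transcripts was not tested.

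The wider red cell program, 83 listed genes of heme synthesis, transcription, erythropoietin and iron, globins, the membrane skeleton and the red cell surface, had 71 measured genes and 63 above background. Of the 71, 0 passed limma's adjusted threshold in either direction, and 3 (4.23%) had an unadjusted p under 0.05, against 5.01% of all genes. All 3 were higher in KO: the complement inhibitor Cd59a by 0.50 (limma adjusted p = 0.786) and the ferritin chains Fth1 by 0.14 and Ftl1 by 0.21 (adjusted p = 0.786 for each). The KO mean was higher for 45 of 71 (63.4%, against 64.2% of all genes), and for 33 of 71 without WT replicate 5, against 61.7% of all genes. Their median difference was 0.06, and -0.01 without that array.

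In WT replicate 5, 7 of the 63 (11.1%, against 0.437% of genes above background) lay at least 1 below every other array. In heme metabolism these were 2 of 13, Tspo2 (6.57 against 8.08 to 9.36) and the biliverdin reductase Blvrb (8.04 against 9.08 to 10.04). Among transcription factors it was 1 of 17, Gfi1b, a transcriptional repressor that acts in red cell and megakaryocyte progenitors, at 8.81 against 9.81 to 11.41. In the membrane skeleton list they were 2 of 10, Mfsd2b (7.41 against 10.35 to 12.00) and the Rh antigen gene Rhd (5.58 against 6.65 to 7.97). Among surface proteins they were 2 of 11, the urea transporter and Kidd blood group gene Slc14a1 (11.14 against 12.76 to 13.95) and the complement regulator Cd55 (9.34 against 10.64 to 11.76). None of 11 genes of erythropoietin signalling and iron uptake did so, although Epor, the erythropoietin receptor, read 7.25 there against 7.69 to 9.79.

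Gfi1b was the only one of the 17 transcription factor genes to lie this far below in WT replicate 5. The stem cell and progenitor factor Gata2 read 10.42 there, the same as in KO replicate 1, and up to 11.40 elsewhere. Tal1 read 9.02 against 8.98 to 9.15, Lmo2 10.44 against 10.13 to 10.80, and Myb 14.22 against 13.35 to 14.05. Zfpm1, the GATA1 cofactor FOG1, read 10.23, close to the 10.31 of KO replicate 1, and 11.32 to 12.04 in the other 7 arrays.

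Some other red cell genes gave little signal in any array, Alas2 and Slc4a1 among them, which were picked after their values were seen. Alas2, the heme synthesis enzyme of erythroblasts, read 5.36 to 5.51, and the anion exchanger Slc4a1 4.73 to 4.88, around or under the background level. Of 10 globin and chaperone genes 3 were measured, the embryonic globins Hba-x, Hbb-bh1 and Hbb-y. The adult globins and the chaperone Ahsp were not measured, so their level is not known here. Hbb-y alone lay above background by its mean (5.48 to 6.03). The transferrin receptor gene Tfrc read 8.80 to 8.89 throughout.

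Marker lists of other cells moved with some of the low arrays. In WT replicate 5 the megakaryocyte and platelet list (13 genes above background) had a mean of 7.65 against 9.00 to 9.55, and 4 of its 13 genes lay at least 1 below every other array. Pf4, a platelet chemokine, read 10.42 against 14.33 to 15.83, Treml1 7.47 against 10.32 to 11.34, and Gp5, a platelet glycoprotein, 6.38 against 8.62 to 9.81. The list of mast cells, basophils and eosinophils (11 genes) averaged 7.42 against 8.35 to 9.51, with 3 of 11 such genes. In the other 8 marker lists 0 of 43 genes did so. Of the 70 genes this low in WT replicate 5, 7 were members, 7 belonged to the wider red cell lists, 4 to the megakaryocyte list and 3 to the mast cell list.

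KO replicates 1 and 2 carried the most signal of the mature neutrophil list, at means of 9.75 and 9.38 against 5.85 to 7.58 in the other arrays. The neutrophil calgranulin gene S100a8 read 12.58 and 10.87 there and 4.86 to 8.83 elsewhere. WT replicate 4 had the highest macrophage mean, 7.72 against at most 7.02 in the others, over the 4 of 10 genes above background. Of these, Adgre1, Vcam1 and C1qb were highest in it, whereas Cd68 was highest in WT replicate 5 (12.26 against 11.50). Adgre1 read 5.93 in WT replicate 4 against 5.19 to 5.56 in the others, and it was above background in 3 arrays. Flt3, a receptor of lymphoid-primed progenitors, was highest in WT replicates 5 and 4, at 12.78 and 12.15 against 10.81 to 11.57. The stem cell list (9 genes) averaged 8.67 in WT replicate 5 and 8.46 to 8.82 in the others. The part of these cell types in the low red cell signal was not tested.

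**Figure D5:**
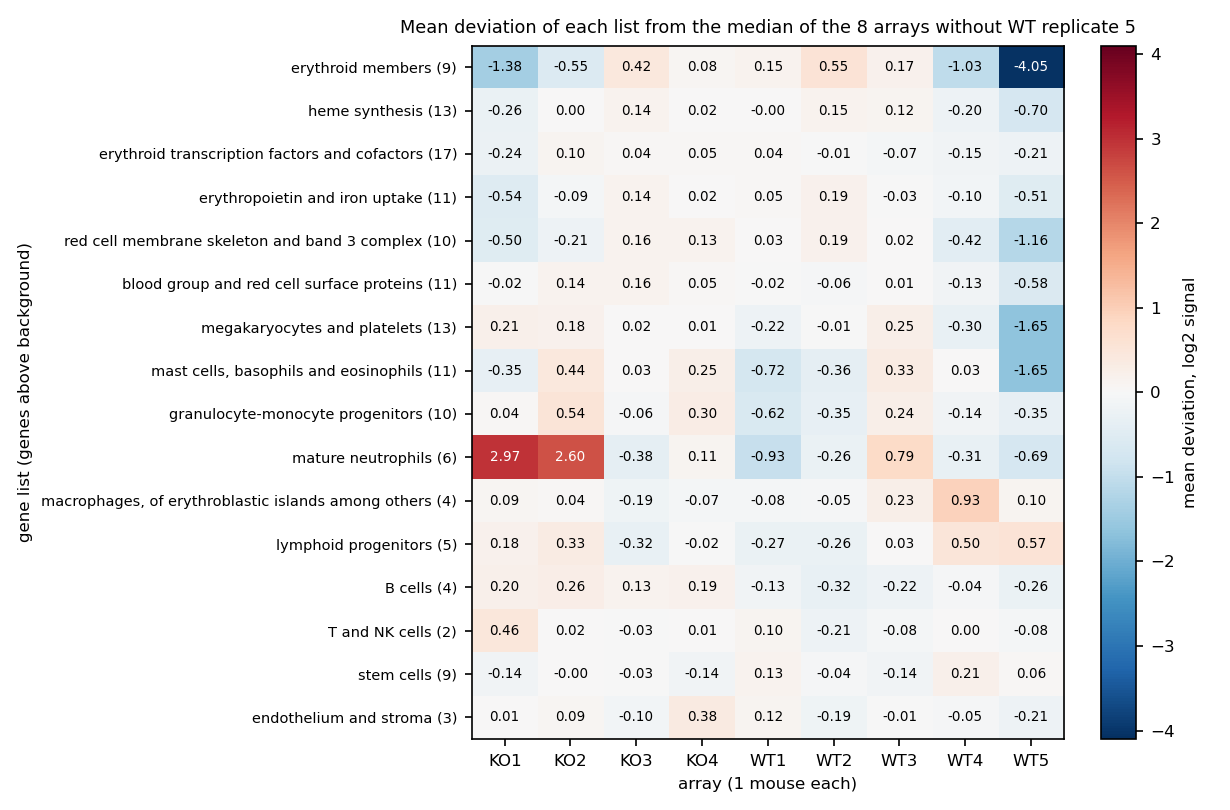
Mean deviation (log2 signal) of each gene list from the median of the 8 arrays without WT replicate 5, by array, with the number of genes above background in parentheses. The erythroid genes are lowest in WT replicate 5 (-4.05), KO replicate 1 (-1.38) and WT replicate 4 (-1.03), the megakaryocyte and mast cell lists are both at -1.65 in WT replicate 5, and neutrophil genes are at 2.97 and 2.60 in KO replicates 1 and 2.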

How the data were processed

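RNA of LSK cells from 9 mice, 5 ng each, was amplified and hybridised to Affymetrix arrays. The authors deposited 1 table of signals, read here as log2, of 72688 probesets by 9 arrays, made with Partek 6.6 per the submitters' processing notes. How log base, background and normalization were set is not given in the sources used here. Symbols came from the platform annotation, updated through Entrez identifiers to RefSeq. The brightest probeset of exactly 1 symbol stood for a gene, and each member had 1.

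Genotypes were compared over 30142 genes by limma (version 3.58.1, R 4.3.3) with no covariate, using eBayes with no trend and Benjamini-Hochberg adjustment at 0.05, and single members by exact permutation over the 126 splits of the arrays. Correlations used exact permutation, adjusted over 36 pairs, with Python 3.11.15 and SciPy 1.17.1. The limma script was tested on simulated data. The number of arrays limits the precision. Replicates are separate mice per the labels, and their numbers do not pair mice of the groups.

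The members, gene lists, tests and alternatives were chosen with earlier results of these data known. All members were named. Of each other list the rule took up to 2 genes per direction by p, the 3 furthest below and the 1 furthest above in WT replicate 5, among genes above background, and for Car1, Klf1 and Gata1 the 6 most alike genes, skipping model names (Gm, Rik), small RNAs and receptor genes. Other genes named (among them Epor, Gata2, Tal1, Alas2, Slc4a1, Tfrc and the neighbours of Car1) were chosen after their values were seen. Alternatives were quantile normalization, median centring, leaving out genes below background, eBayes with trend, array weights, a replicate block, and leaving out arrays.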

Additional observations from a re-analysis of the deposited data

Results flagged for a closer look

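The Car1 signal of WT replicate 5 stood far from those of the other 4 WT arrays. The gap between it and the next lowest WT array, divided by the range of the 5 WT arrays, was 0.873, above Dixon's 95% critical value for 5 samples. The array read 6.38, and the other 4 read 15.64, 16.65, 16.85 and 16.99. It was the single case among 18 combinations of member and group examined. Chance marks about 1 in 20 of such groups if they are independent, but these share arrays. That this array was low in Car1 was known beforehand, so the flag is a description.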

How the results depend on the processing

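No member passed limma's threshold under any setting run, and the count of genes past it over all genes stayed at 1 except with array weights, where it was 2. Quantile normalization, median centring, leaving out genes below background and eBayes with trend changed no direction. The difference of Ermap was -0.02 with array weights. Leaving out 1 array at a time gave -0.31 to 2.35 for Car1, -0.26 to 0.07 for Car2, -1.0 to 0.60 for Ermap, -0.32 to 0.86 for Rhag, -0.58 to 0.60 for Kel, -0.68 to 1.30 for Aqp1, 0.06 to 1.16 for Klf1, 0.15 to 0.34 for Gata1 and 0.08 to 0.87 for Icam4. Without both KO replicate 1 and WT replicate 5, the differences were -0.03 for Car1, -0.58 for Ermap, -0.02 for Rhag, -0.13 for Kel and -0.06 for Car2, and 0.45 for Klf1, 0.23 for Icam4, 0.20 for Gata1 and 0.17 for Aqp1. With fewer arrays these values follow from which arrays remain.

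The replicate block over replicates 1 to 4, which leaves out WT replicate 5, gave -0.31 for Car1, -1.0 for Ermap, -0.32 for Rhag, -0.58 for Kel and -0.68 for Aqp1, the same as without that array, and 1 gene past the threshold. Deviations of same-numbered arrays correlated at -0.178, 0.146, -0.013 and 0.27 for numbers 1 to 4, so the numbers were not taken as pairs. Genes lower in WT replicate 5 than in every other array numbered 70 at a margin of 1 and 16 at 2. The same count at a margin of 1 was 133 for KO replicate 1, 5, 3 and 0 for KO replicates 2 to 4, and 1, 8, 3 and 1 for WT replicates 1 to 4. Signals near background, such as those of Gata1, limit how far a fall can be seen.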

Other observations

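Relatives of the members shared some of their behaviour. Aqp11, an aquaporin, read 5.47 in WT replicate 5 and 6.97 to 8.03 in the other arrays, and of the 11 other aquaporin genes measured 2 lay above background. Of 14 other carbonic anhydrase genes, 6 lay above background and 0 were at least 1 below every other array in WT replicate 5. Icam1 and Icam2 differed between KO and WT by 0.30 and -0.15 (limma adjusted p = 0.786 and 0.787).

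Among genes on none of the lists, named after their values were seen, Ces2g read 6.11 in WT replicate 5 against 9.88 to 13.43 in the others, Cavin2 4.62 against 8.17 to 9.36, and St8sia6 6.31 against 9.37 to 10.86. Slamf1, which marks stem cells, read 8.63 there against 9.61 to 11.28, and Hlf, another stem cell gene, 11.62 against 9.80 to 10.96. The mast cell protease gene Cma1, named for its small p within its list, was higher in KO by 0.82 (limma adjusted p = 0.786). Its exact permutation p was 0.00794, the smallest that 4 arrays against 5 allow. KO and WT did not overlap for it, as for 0.856% of all genes (258 of 30142).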
